A study of Mus musculus with 2 samples.

Results

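The cells described here are segmented cells of 2 subcutaneous mouse tumours that carried transcripts of Cnn1 and Tagln, genes of the contractile apparatus, together with a gene of the fibroblast or mural lineage. They were chosen by their measured counts: at least 40 gene counts, at least 1 Cnn1 and 2 Tagln counts, and at least 1 count among 5 second genes (Itga8, Nox4, Aspn, Mfap4 and Gli1). Cells with any count of Pi16 (adventitial fibroblasts), Ptprc (leukocytes) or Pecam1 (endothelium) were left out, as were cells with 2 or more counts of Higd1b (pericytes) or more than 1 count of Epcam (epithelium). This rule left 7505 gated cells of 516855, of which 4228 of 261111 lay in the EKP section and 3277 of 255744 in the RKP section. The cells were chosen on the 12 genes of the rule, so the values of these genes are given as a description only.

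EKP and RKP are mouse cell lines that served as allograft models of diffuse gastric cancer. The sources used here do not spell out the letters of the names, list the alleles or say which line carries the mutant RHOA of the series title. Cells of a line were mixed with Matrigel and grew subcutaneously on the right and left flank of C57BL/6 mice, 5 weeks old, and tumours were taken once they had reached similar volumes. The host mice are immune-competent by strain, the site of growth is not the stomach, and no untreated or tumour-free tissue was part of the comparison. One paraffin block with both tumours was put on a Xenium slide, on which single RNA molecules are decoded in place and assigned to segmented cells, with a panel of 379 genes plus 100 added genes. There was 1 section for each line, so no difference between sections has a replicate check, no test was made, and every interval below covers counting error alone.

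Contractile fibroblasts, often called myofibroblasts, build actin stress fibres that pull on the surrounding matrix. Their genes overlap with those of smooth muscle: Acta2 encodes smooth muscle actin, Tagln and Cnn1 encode actin-binding proteins, Myl9 encodes the regulatory light chain of myosin, Mylk the kinase that phosphorylates that chain, Myh11 the smooth muscle myosin heavy chain, and Des the intermediate filament of muscle. Transcription of many of these genes is driven by serum response factor at a DNA element called the CArG box, and RHOA, a small GTPase, acts upstream of actin assembly and of that factor. In tumours such cells lie in the stroma and share their space with matrix-producing fibroblasts, pericytes and vascular smooth muscle.

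The EKP section held 31597828 gene counts and the RKP section 44294494. Cells with under 40 gene counts made up 38.0% of the EKP section and 8.07% of the RKP section, and the median of the remaining cells was 165 counts in both. Gated cells were deeper than that, with medians of 231 counts in EKP and 200 in RKP. The panel's 20 negative control probes together gave 21 counts in the EKP gated cells and 9 in the RKP gated cells. The sections shared 19 cell barcodes, and none of these belonged to a gated cell.

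The label of contractile fibroblasts could be checked only in part, because many genes had counts in every kind of cell on this slide. Cells with at least 2 Ptprc counts, which are leukocytes by that gene and had median depths of 164 and 175 counts, serve as the reference. Col1a1, the main fibrillar collagen, had at least 1 count in 99.9% of the EKP and 99.6% of the RKP gated cells, but also in 92.7% and 83.0% of the Ptprc cells. Lum, a collagen-binding proteoglycan of fibroblasts, had a count in 68.5% and 69.5% of gated cells and in 46.2% and 34.7% of Ptprc cells. With every cell thinned to 40 counts, Col1a1 was found in 94.0% and 94.4% of gated cells against 75.2% and 57.0% of Ptprc cells, and Lum in 28.7% and 32.1% against 21.5% and 15.3%. Both genes were thus more frequent in gated cells, but a single count of either was common in leukocytes too.

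Transcripts of other kinds of cell were present too. Krt8, a keratin of simple epithelium, had at least 1 count in 55.5% of the EKP and 42.7% of the RKP gated cells, and in 42.1% and 56.7% of the Ptprc cells. Thinned to 40 counts, the shares for Krt8 were 21.8% of gated against 20.4% of Ptprc cells in EKP, and 14.8% against 28.1% in RKP. Detection of Krt8 in gated cells therefore lay near the level of leukocytes in EKP and below it in RKP. The Epcam limit held for gated cells, while Ptprc cells were chosen by Ptprc counts. The comparison thus cannot show whether Krt8 in gated cells lay at a background level. Myh11, which marks differentiated smooth muscle, had at least 1 count in 32.6% of the gated cells of either section and in 7.09% and 5.75% of the Ptprc cells. After thinning it was found in 9.77% and 9.64% of gated cells against 1.83% and 1.499% of Ptprc cells, and so lay above the leukocytes in both sections. In EKP 1212 gated cells (28.7%), and in RKP 1228 (37.5%), had no count of Krt8 and none of Myh11. The cells are called gated Cnn1 Tagln cells below, by their rule.

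The genes of the rule had counts in leukocytes as well. Cnn1 had a count in 9.18% of the Ptprc cells in EKP and 6.88% in RKP, and Mfap4, an elastic fibre protein, in 37.1% and 28.5%. Segmentation can give a cell the transcripts of its neighbours, doublets were not called, and their part in the values below was not tested. Since every gated cell had to carry Cnn1 and a second gene, a higher share of these genes in gated cells was fixed by the rule. Gli1, a target and effector of hedgehog signalling, was found in 0.307% of EKP gated cells thinned to 40 counts, next to 0.304% of the other EKP cells, and in 1.495% of thinned RKP gated cells, next to 0.431%.

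The limits of the rule lay within a range of cells that differed in some genes and not in others. Of the EKP cells with 40 or more counts, 17149 had Cnn1, 14921 of these passed the Tagln limit, 12277 the second-gene limit, 7243 the limits on Pi16, Ptprc, Pecam1 and Higd1b, and 4228 the Epcam limit. In RKP the same steps left 15852, 12586, 10898, 5855 and 3277 cells. After the Cnn1 limit, the Ptprc limit removed the most cells, 3513 in EKP and 4055 in RKP, and the Epcam limit followed in EKP with 3015. Cnn1 stood at exactly 1 count in 54.9% of the EKP and 59.7% of the RKP gated cells. Cells just inside the rule, with 1 Cnn1 and 2 Tagln counts, had Acta2 levels of 32090 CPM (counts per 1000000 gene counts) and 43382 CPM in EKP and RKP, and cells just outside with 1 Tagln count had 32165 and 40251 CPM. Cells that met every condition except for having no Cnn1 count numbered 9664 in EKP and 7803 in RKP, more than the gated cells, and had 40748 and 52877 CPM of Acta2. Myh11 was less even across these limits. It stood at 1028 CPM in EKP and 1730 CPM in RKP cells just inside the rule, at 1676 and 2001 CPM with 1 Tagln count, at 2489 and 3729 CPM in cells with none of the second genes, and at 804 and 1101 CPM in cells with no Cnn1, next to 2585 and 2797 CPM in all gated cells. Cells just outside with 2 Epcam counts had 58399 and 64737 CPM of Acta2, above the 54699 CPM of the gated cells in EKP and below their 68930 CPM in RKP. The epithelial gene Krt8 stood at 17250 CPM in EKP and 9341 CPM in RKP cells just inside the rule. All gated cells had 7779 and 4040 CPM of it. The sets outside the rule were also above all gated cells, from 9477 to 17445 CPM in EKP and from 6739 to 10318 CPM in RKP.

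Gated Cnn1 Tagln cells formed a larger share of the EKP section. They were 2.61% (95% interval 2.53 to 2.69, Clopper-Pearson) of the EKP cells with 40 or more counts and 1.39% (1.35 to 1.44) of the RKP cells, a ratio of 1.87. Since the rule needs several transcripts in a cell, the share was also taken by depth: it was 0.312% in EKP and 0.386% in RKP among cells of 40 to 79 counts, 1.79% and 1.17% from 80 counts, 3.66% and 1.81% from 160 counts, and 4.57% and 1.81% from 320 counts. The sections were thus in the opposite order among the shallowest cells, where their intervals overlapped, and EKP was higher in the other 3 bins. After thinning every cell to 40 counts the shares were 0.535% and 0.285%, and after thinning cells of 80 or more to 80 counts they were 1.90% and 1.06%. With all segmented cells as the denominator, shallow ones included, the ratio was 1.26. With gated cells limited to those with no count of Krt8 or Myh11, a choice made after seeing the data, it was 1.43.

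The share was uneven within each section. Cell positions were not used here, so each file was cut into 10 successive parts, whose order may follow place only in part. The share ranged from 1.14% to 5.28% over the EKP parts with a median of 2.77%, and from 0.370% to 2.82% over the RKP parts with a median of 1.27%. The ranges overlapped, and the gap between the sections was smaller than the spread between parts of either one.

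**Figure D1:**
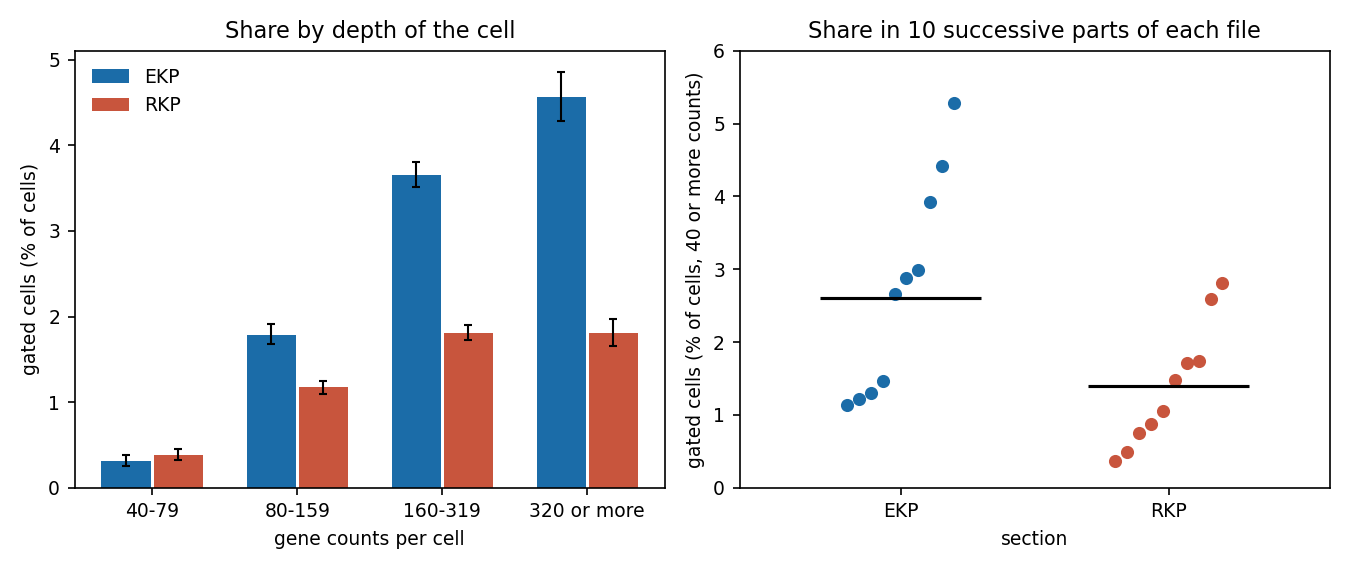
Share of gated Cnn1 Tagln cells by section. Left, bars give the share (%) of cells in 4 bins of gene counts per cell, with 95% Clopper-Pearson intervals; EKP and RKP were close in the shallowest bin (0.312% and 0.386%) and EKP was higher in the deeper bins. Right, each point is 1 of 10 successive parts of a section's file, sorted by value, and the line is the whole section (2.61% and 1.39%); the parts overlap between sections.

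Among the contractile genes that the rule did not use, Myh11, Myl9, Des and Acta2 were at least 2-fold higher in gated cells than in all other cells of 40 or more counts, in both sections. Myh11 stood at 2585 CPM in EKP gated cells against 624 CPM in the other cells (4.14-fold), and at 2797 against 392 CPM in RKP (7.14-fold). Myl9 stood at 8744 against 2290 CPM in EKP (3.82-fold) and at 10294 against 1681 CPM in RKP (6.12-fold). Both genes were thus well above the other cells in each section, and the distance was greater in RKP, where the other cells held less of them. Acta2 was at 54699 against 25253 CPM in EKP (2.17-fold) and 68930 against 22728 CPM in RKP (3.03-fold). Des was at 2128 against 770 CPM (2.76-fold) and 2188 against 828 CPM (2.64-fold). Mylk missed the limit because of EKP, where gated cells had 2766 CPM and the other cells 1743 CPM, while RKP gated cells had 7626 CPM against 1803 CPM.

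Over the whole panel, 427 genes outside the rule had enough counts for this comparison; 25 of them (5.85%) were at least 2-fold higher in gated cells in both sections, and 167 (39.1%) were at least 2-fold lower. The median gene was lower in gated cells by 1.01 on the log2 scale in EKP and by 1.10 in RKP, and 4 of 5 contractile genes outside the rule were among the few that were higher. The gated cells were chosen on Cnn1 and Tagln, which belong to the same contractile list. Higher levels of its other genes, here and against the sets below, may follow in part from that choice and are a description only. Of the 7 matrix genes outside the rule, 2 were higher and 2 lower. Among the remaining 21 higher genes were Mamdc2 (3.40-fold in EKP and 2.87-fold in RKP), Timp3, an inhibitor of metalloproteinases (2.66 and 5.35), Fbln5, an elastic fibre protein (2.57 and 3.43), Bgn, the proteoglycan biglycan (2.12 and 3.87), and Ccn1, a matricellular protein (2.54 and 2.92). Of genes for transcription factors, Tbx3 was 3.11-fold and 6.28-fold higher, Snai2 2.67-fold and 2.69-fold, and Snai1 2.17-fold and 2.83-fold. Axin2, a WNT target, was 2.48-fold and 2.13-fold higher. Of the fibroblast list, Mfap5 and Ccdc80 were past 2-fold in both sections, Dpt was lower, and Lum, Col1a1 and Mmp2 were not past 2-fold in both, with Col1a1 at 75657 CPM in EKP gated cells and 84775 CPM in RKP.

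Genes of the cells that the rule aimed to leave out were lower. Of the epithelial genes outside the rule, 9 of 9 were at least 2-fold lower in gated cells than in all other cells, in both sections, as were 7 of 8 macrophage genes, 6 of 8 T cell genes and 5 of 7 endothelial genes. Of all 427 genes tested, 39.1% were. The limits on Epcam, Ptprc and Pecam1 held for gated cells and not for the other cells. Lower levels of these lists therefore follow in part from the rule and are a description only. No member of these 4 lists was at 0 in the gated cells except Pecam1, which the rule sets to 0. The summed level of the 9 epithelial genes was 15643 CPM in EKP gated cells against 77949 CPM in the other cells, and 12710 against 94778 CPM in RKP. The 8 macrophage genes summed to 11589 against 26826 CPM in EKP and to 24521 against 37290 CPM in RKP. Their part in the results below was not tested.

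**Figure D2:**
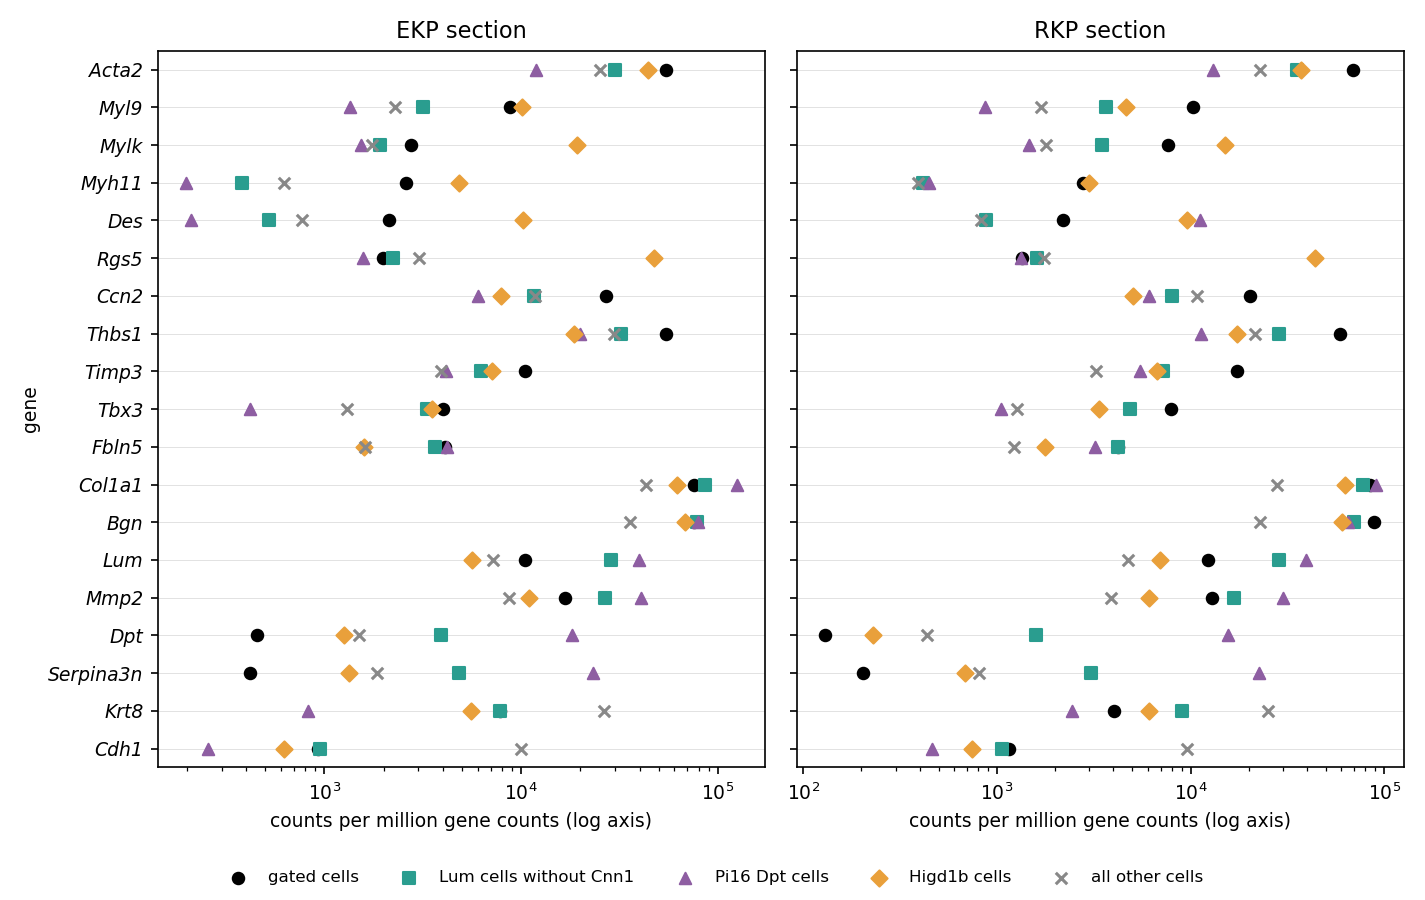
Level of selected genes (CPM, log axis) in gated cells and in 4 other sets of cells, for the EKP section (left) and the RKP section (right); each symbol is the sum over all cells of a set. Gated cells (black circles) lie to the right of Lum cells for Acta2, Myl9, Myh11, Des and Ccn2, to the left of Higd1b cells for Rgs5, and far to the left of Pi16 Dpt cells for Dpt and Serpina3n.

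The promoter of Myl9 is shown because Myl9 was the only contractile gene of the panel whose promoter window matched the CArG pattern searched. The windows run from 250 bases before to 50 bases after the start of each gene in the RefSeq annotation of GRCm38.p6; 5 of the 7 contractile genes on the panel had a window (Acta2, Cnn1, Des, Mylk and Myl9). A CArG box was searched for on both strands and was found in 535 of 32851 windows of that length (1.63%). The Myl9 window lies at chr2:156775214-156775513 on the plus strand and covers the promoter and the start of the gene, with the box, in capitals, from 161 to 152 bases before the start. The match is a description of the letters and does not show binding. The absence of a match in the other 4 windows says nothing of sites beyond them. Nor does it speak to CArG boxes within them that depart from the pattern searched.
Myl9: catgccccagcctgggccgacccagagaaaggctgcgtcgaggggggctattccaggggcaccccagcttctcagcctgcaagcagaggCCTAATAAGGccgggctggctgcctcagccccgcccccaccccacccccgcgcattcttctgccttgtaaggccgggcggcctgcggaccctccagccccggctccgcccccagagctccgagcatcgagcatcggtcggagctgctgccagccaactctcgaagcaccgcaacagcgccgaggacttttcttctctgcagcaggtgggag

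Against Lum-positive cells without Cnn1, few genes were higher in the gated cells and more were lower. The comparison set had 2 or more counts of Lum, no Cnn1 and otherwise the same exclusions, and held 11529 EKP and 10474 RKP cells. Of 353 genes, 4 (1.13%) were at least 2-fold higher in gated cells in both sections. They were Myh11 (6.80-fold in EKP and 6.72-fold in RKP), Des (4.09 and 2.48), Myl9 (2.77 and 2.81) and Ccn2, a matricellular gene that responds to mechanical load (2.33 and 2.54). So 3 of the 5 contractile genes outside the rule were in this small set, and Acta2 and Mylk were not. Gated cells had to carry Cnn1 and Lum cells to lack it, so these counts are not independent of how the sets were chosen.

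Lower in gated cells than in Lum cells, by at least 2-fold in both sections, were 41 genes (11.6%). Chl1, a cell adhesion gene, stood at 80.7 CPM in EKP gated cells against 1639 CPM in Lum cells, and at 31.2 against 1262 CPM in RKP. Serpina3n, a secreted protease inhibitor, stood at 416 against 4857 CPM and 203 against 3057 CPM. Dpt, the matrix protein dermatopontin of resting fibroblasts, stood at 452 against 3923 CPM and 129 against 1592 CPM. These 3 genes were low in gated cells of both sections. Col1a1, at 75657 and 84775 CPM in gated cells, was within 2-fold of the Lum cells in both sections, as was Bgn.

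The Pi16 Dpt cells, which carry the markers of adventitial fibroblasts, numbered 2383 in EKP and 1045 in RKP and differed more. Of 286 genes, 35 (12.2%) were at least 2-fold higher in gated cells and 53 (18.5%) at least 2-fold lower, in both sections. Tbx3 was 9.67-fold higher in EKP and 7.58-fold in RKP, Myl9 6.45-fold and 11.9-fold, Myh11 13.2-fold and 6.23-fold, and Acta2 4.596-fold and 5.27-fold. The higher genes also held epithelial genes, 6 of the 9 on the list, among them Krt19 (8.64-fold and 7.54-fold), and the macrophage gene Arg1, which encodes arginase (10.2-fold and 7.66-fold). Whether these counts belong to the gated cells or to their neighbours was not tested. Dpt, which defines the Pi16 Dpt cells, was 40.1-fold and 121-fold higher there, Serpina3n 55.8-fold and 112-fold, Chl1 102-fold and 290-fold, and the complement gene C3 14.03-fold and 26.1-fold.

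The Higd1b cells, which carry a pericyte marker, were few, 155 in EKP and 112 in RKP. Of 267 genes, 13 (4.87%) were at least 2-fold higher in gated cells in both sections and 36 (13.5%) at least 2-fold lower. Rgs5, a regulator of G protein signalling in pericytes and vascular smooth muscle, stood at 1977 CPM in EKP gated cells against 47289 CPM in Higd1b cells and at 1341 against 44100 CPM in RKP. Cyp4b1, Gm13889 and the endothelial genes Clec14a, Calcrl, Vwf, Tie1 and Kdr were also lower in gated cells; Kdr, a receptor of endothelial growth factor, was 10.4-fold and 11.1-fold higher in Higd1b cells. Higher in gated cells were Fxyd6 (3.53-fold and 4.08-fold), Ccn2 (3.44 and 4.05), Thbs1, which encodes thrombospondin (2.94 and 3.42), and Ccn1 (2.84 and 3.57). None of the 5 contractile genes outside the rule was at least 2-fold higher in gated cells than in Higd1b cells in both sections, and Mylk was lower, at 2766 CPM in EKP and 7626 CPM in RKP gated cells.

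The 5 second genes were detected in different fractions of the gated cells. Mfap4 was found in 76.7% of EKP and 84.8% of RKP gated cells, Aspn, the proteoglycan asporin, in 70.1% and 71.6%, Nox4, an oxidase induced in myofibroblasts, in 54.0% and 55.6%, Itga8 in 9.32% and 26.4%, and Gli1 in 1.75% and 6.01%. A single second gene was found in 26.7% of EKP and 19.0% of RKP gated cells, and all 5 in 1 cell of EKP and 46 cells of RKP. Itga8 and Gli1 were the second genes with the largest difference between the sections, at 454 and 1782 CPM for Itga8 and 85.6 and 336 CPM for Gli1. Being genes of the rule they enter no count.

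Few genes were at least 2-fold apart in the same direction in both sections between cells with and without a given second gene. Missing that limit does not mean equal levels. Sox2, for example, stood at 632 CPM with Mfap4 and 4537 CPM without it in RKP. In EKP it was short of 2-fold, at 2777 and 4946 CPM. Only 74 EKP gated cells had Gli1, so that division had few counts. With Itga8, 5 of 253 genes (1.98%) were at least 2-fold apart in the same direction in both sections: Mustn1, a gene of muscle and skeletal tissue (550 against 88.1 CPM in EKP and 445 against 183 CPM in RKP), and Hey2, a Notch target of vascular smooth muscle, were higher, and Cxcr2, Stfa2l1 and Lrp2 lower. With Nox4, 5 of 241 genes (2.07%) were, all lower: Areg and Bmp2, both secreted ligands, Sox2, and the neutrophil genes Csf3r and Cxcr2. With Aspn, 4 of 251 genes (1.59%) were: Ccn3 and Thbs4 were higher, and Cstdc4 and Stfa2l1 lower. With Gli1, Csf3r alone of 264 genes (0.379%) was, and it was lower. Its fold in EKP is a bound resting on few counts (95.8 CPM with Gli1), as is that of Lrp2 in RKP with Itga8. For Stfa2l1 with Itga8 the EKP interval included equal levels. Ptch1, another hedgehog target, stood at 1580 against 1274 CPM in EKP cells with and without Gli1 and at 1426 against 947 CPM in RKP cells, short of 2-fold in both.

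With Mfap4, 12 of 254 genes (4.72%) were at least 2-fold apart in both sections, and all were lower in cells with Mfap4. They included Rgs5, at 1182 CPM with Mfap4 and 5309 CPM without it in EKP, and at 1034 and 3788 CPM in RKP. Gm13889, Hey2, Mustn1, Cyp4b1 and Calcrl, which were higher in Higd1b cells or in Myh11-rich cells, followed the same order. Gated cells without Mfap4 thus held more of these 6 genes in both sections. A gated cell without Mfap4 had to carry another second gene, and the sizes of the groups differ between second genes, so the counts for the 5 genes are not ranked. Cells with a second gene were deeper than those without it, for Mfap4 by medians of 246 against 186 counts in EKP and 209 against 142 counts in RKP. With cells thinned to 40 counts, the number of genes apart in both sections was 6 for Mfap4 and 3 for Itga8.

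The gated cells could also be divided by Krt8 and by Myh11, 2 divisions chosen after the values were seen. Gated cells with 3 or more Krt8 counts (985 in EKP and 344 in RKP) were set against those with none (1880 and 1877). Of 237 genes, 46 (19.4%) were at least 2-fold higher with Krt8 in both sections, and 2 (0.844%), Gm13889 and Hey2, were lower. In RKP the fold of Hey2 is a bound, because Krt8-rich cells held too few counts of it (24.0 CPM). Its RKP interval, 0.08 to 1.30, included equal levels. Sox2, a transcription factor of stem and progenitor cells, stood at 7995 against 842 CPM in EKP and 4873 against 307 CPM in RKP. Msln, the surface protein mesothelin, stood at 10858 against 981 CPM and 5893 against 1033 CPM. S100a4, a calcium-binding protein, stood at 18789 against 3156 CPM and 11222 against 1780 CPM. Krt8-rich gated cells thus held far more of all 3 genes in both sections. Areg, Bmp2, Anxa8, Cav1, Sox9 and the cell cycle genes Mki67, Top2a and Stmn1 were higher as well.

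Contractile and matrix genes were lower where Krt8 was high, but not past 2-fold in both sections. Acta2 stood at 45319 CPM in Krt8-rich and 59119 CPM in Krt8-free EKP gated cells, and at 57813 and 72795 CPM in RKP. Mylk stood at 1546 and 3670 CPM in EKP and at 4981 and 8079 CPM in RKP, and Col1a1 at 60642 and 83886 CPM and 68770 and 88464 CPM. Krt8-rich cells were deeper, with medians of 280 against 206 counts in EKP and 230 against 192 in RKP, and with all gated cells thinned to 40 counts 24 genes were higher with Krt8.

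Myh11 marked a smaller set. Gated cells with 2 or more Myh11 counts (640 in EKP and 451 in RKP) differed from those with none (2849 and 2208) in 9 of 248 genes. In the Myh11-rich cells 5 genes (2.02%) were higher in both sections: Mustn1 (14.4-fold in EKP and 6.85-fold in RKP), Gm13889 (8.45 and 5.94), Hey2 (5.29 and 6.84), Des (3.86 and 2.97) and Rgs5 (3.56 and 2.42). Lower were 4 genes (1.61%): Sox2, Tspan8, Foxj1 and Myoz2. For Foxj1 and Myoz2 one side held no more counts than the floor (3 counts, or the highest control probe where that was more), so their folds are bounds, and the intervals included equal levels for Myoz2 in both sections and for Foxj1 in RKP. With cells thinned to 40 counts, 1 gene was lower. Gm13889 and Hey2 were thus higher with Myh11 and lower with Krt8, and Sox2 and Tspan8 lower with Myh11 and higher with Krt8. For Hey2 the lower level with Krt8 rests on EKP, since its RKP fold is a bound. Acta2 differed little, 62098 against 51988 CPM in EKP and 76161 against 66552 CPM in RKP, and so did Col1a1, at 74250 against 75767 CPM and 83544 against 84333 CPM. Cells that were rich in both Krt8 and Myh11 by these limits numbered 102 in EKP and 36 in RKP.

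**Figure D3:**
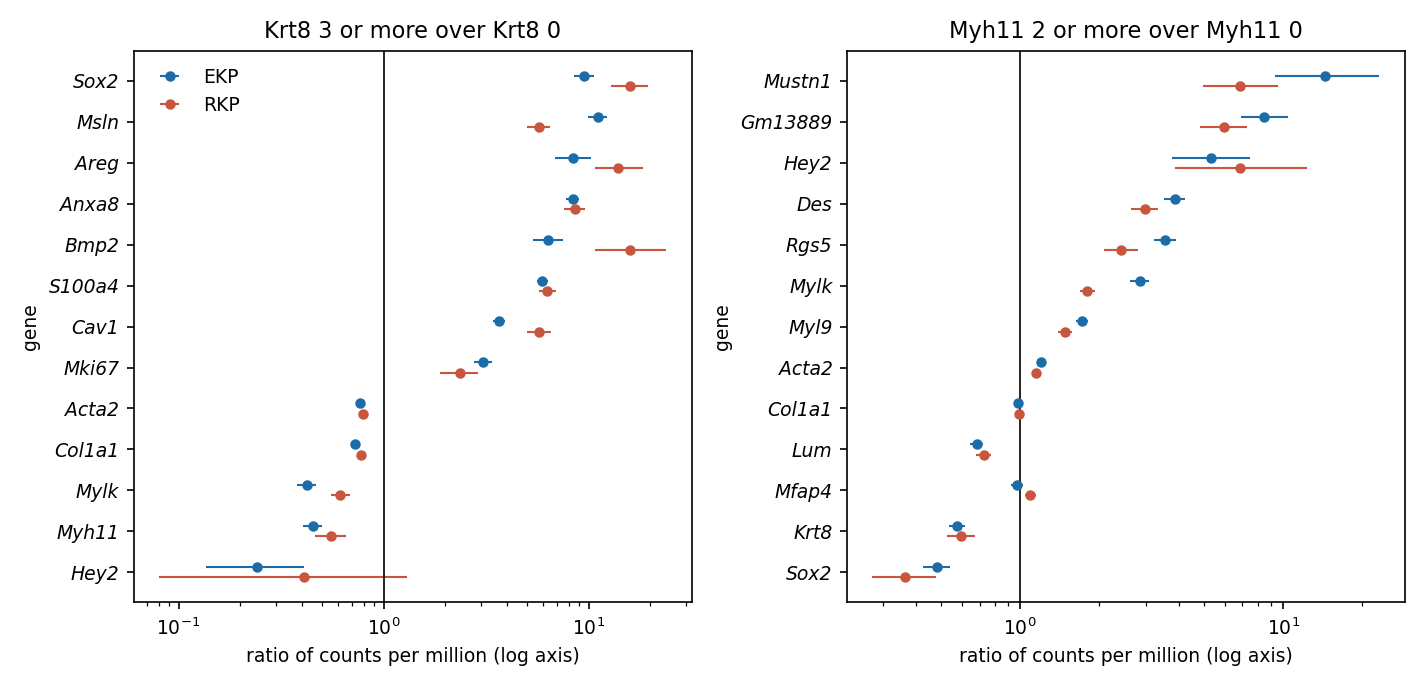
Ratio of CPM (log axis) between gated cells with 3 or more Krt8 counts and none (left) and with 2 or more Myh11 counts and none (right), with exact 95% intervals that cover counting error, for the EKP and RKP sections. Sox2 to Mki67 lie above 1 and Acta2 to Hey2 below 1 in the left panel, where the RKP interval of Hey2 includes 1. Mustn1, Gm13889, Hey2, Des and Rgs5 lie above 2 in both sections in the right panel, where Col1a1 lies near 1.

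Between the sections, contractile gene levels of the gated cells were close except for Mylk. Of the contractile genes outside the rule, 1 of 5 was past 2-fold, and the list's median was 0.24 on the log2 scale (RKP minus EKP) beside -0.21 over all genes tested. Mylk stood at 2766 CPM in EKP and 7626 CPM in RKP gated cells, 2.76-fold higher in RKP (exact 95% interval 2.63 to 2.89). A count of Mylk was found in 35.1% of the EKP and 65.4% of the RKP gated cells, and in 10.2% and 24.2% after thinning to 40 counts. In each of the 10 file parts of RKP the level of Mylk lay above the highest of the EKP parts (4511 to 8884 CPM against 1918 to 4474 CPM). Over 12 alternative settings its log2 difference ranged from 1.13 to 1.53. Acta2 (54699 and 68930 CPM), Myl9 (8744 and 10294), Myh11 (2585 and 2797) and Des (2128 and 2188) were within 1.5-fold, and for Myh11 and Des the order of the sections turned under 1 and 5 of the 12 alternatives.

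Over the panel, 327 genes outside the rule had enough counts; 42 (12.8%) were at least 2-fold higher in RKP gated cells, 73 (22.3%) at least 2-fold higher in EKP gated cells, and 212 lay between. The balance depended on the scale and on the cells used. Counts per cell with no scaling gave 28 and 81 genes, no filter on low counts gave 47 and 136, and cells with no count of Krt8 or Myh11 gave 27 and 31. Many of these genes were more abundant in other cells of the section than in the gated cells. Only 90 of the 327 had a level in gated cells at least as high as in the other cells, in the section where the gene was higher; of those, 9 were past 2-fold toward RKP and 15 toward EKP.

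Of the genes whose level in gated cells reached that of the other cells, Twist1, Pmp22, Eng and Fxyd6 were among those past 2-fold toward RKP, while no gene of the fibroblast, adventitial or matrix lists was. Twist1, a transcription factor of mesenchyme, stood at 1561 CPM in EKP and 3469 CPM in RKP gated cells (2.22-fold). Pmp22, a membrane protein, stood at 944 and 2076 CPM (2.20-fold). Both were also higher in RKP among cells with no Krt8 or Myh11, by 2.11-fold and 2.25-fold. Eng, endoglin, a co-receptor of the TGF-beta family found on endothelium and mesenchyme, stood at 1922 and 3964 CPM (2.06-fold), and Fxyd6 at 4567 and 9346 CPM (2.05-fold). In cells with no Krt8 or Myh11 these ratios were 1.67 and 1.91, below 2-fold. Tbx3 (4022 and 7972 CPM), Igfbp6 (1501 and 2889 CPM) and Mustn1 (137 and 264 CPM) were 1.98-fold, 1.92-fold and 1.92-fold higher in RKP. The file parts of the sections overlapped for several of these genes. Of the 10 RKP parts, 9 lay above the highest EKP part for Eng, 7 for Fxyd6 and Tbx3, and 6 for Twist1 and Igfbp6. For Eng, Fxyd6 and Tbx3, 1 RKP part lay below the lowest EKP part. Mlana, Cldn11 and Pnmal2 were past 2-fold as well, but none of the 3 exceeded 40 CPM in either section.

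In the other direction Hp, which encodes haptoglobin, a secreted haemoglobin-binding protein, had the largest ratio among these genes. It stood at 6038 CPM in EKP and 420 CPM in RKP gated cells, 14.4-fold higher in EKP (interval 12.8 to 16.2), with a count in 41.2% and 6.50% of the cells. The other cells of the sections had 3170 and 1974 CPM, and among gated cells with no Krt8 or Myh11 the levels were 6968 and 416 CPM. So Hp was above the other cells of the section in EKP gated cells and below them in RKP gated cells. In Pi16 Dpt cells, by contrast, Hp was at 9511 CPM in EKP and 10273 CPM in RKP. All 10 RKP parts lay below the lowest EKP part (112 to 1210 CPM against 2080 to 9368 CPM).

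Other genes higher in EKP included Lrp2 and Cubn, endocytic receptors that act together in absorptive epithelium (422 against 38.3 CPM and 66.1 against 11.3 CPM), and Bmp2, a ligand of the BMP family (1106 against 343 CPM, 3.23-fold). S100a4 (8198 against 3325 CPM, 2.47-fold) and Cp, ceruloplasmin (8238 against 3768 CPM, 2.19-fold), were higher in EKP too. Bmp2, S100a4 and Cp were among the genes that were higher in Krt8-rich gated cells, of which EKP had more. In cells with no Krt8 or Myh11 the ratios were 4.28 for Bmp2, 2.58 for Cp and 1.79 for S100a4. The file parts of S100a4 overlapped, from 936 to 14703 CPM in EKP and from 895 to 19989 CPM in RKP. Slc14a2, Dcpp2, Ecrg4 and S100b were past 2-fold too. Mpo and Slc4a1 rested on at most 26.3 CPM.

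**Figure D4:**
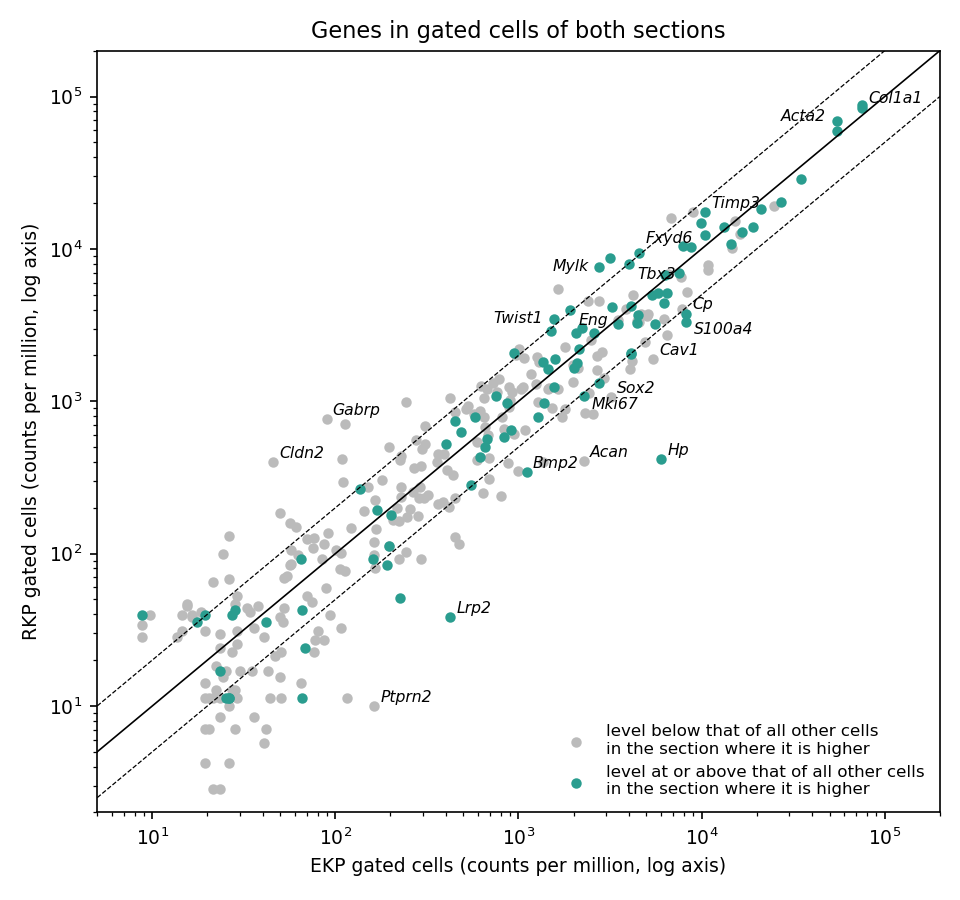
Level of each gene with enough counts, outside the rule, in gated cells of EKP (horizontal) and RKP (vertical), in CPM on log axes; genes with no count in a section are not drawn. The solid line marks equal levels and the dashed lines 2-fold; green points reach the level of the other cells in the section where they are higher. Hp and Lrp2 lie far below the lower dashed line, and Mylk and Twist1 above the upper one.

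Cell cycle and caveolar genes were higher in EKP gated cells. Past 2-fold in that direction were 22.3% of all 327 genes tested. All 4 proliferation genes on the panel were past 2-fold: Mki67 (2311 against 836 CPM), Top2a (2551 against 824 CPM), Ube2c (991 against 347 CPM) and Stmn1 (4921 against 2440 CPM). So were both caveolar genes, Cav1 (5447 against 1898 CPM) and Cavin2 (799 against 238 CPM). In summed level, both lists were lower in gated cells than in the other cells of each section. The proliferation genes summed to 10774 against 13929 CPM in EKP and to 4447 against 18043 CPM in RKP. The caveolar genes summed to 6246 against 6986 CPM in EKP and to 2136 against 8275 CPM in RKP. All 6 genes were also higher in Krt8-rich than in Krt8-free gated cells of both sections, and the share of Krt8-rich cells was 23.3% in EKP and 10.5% in RKP; its part in the difference was not tested. In cells with no Krt8 or Myh11, Mki67 was 2.12-fold, Top2a 2.51-fold, Ube2c 2.34-fold and Cav1 2.95-fold higher in EKP, while Stmn1 was 1.65-fold and Cavin2 1.99-fold higher. In the file parts the ranges of Mki67 (619 to 4298 CPM in EKP, 324 to 1933 CPM in RKP) and Cav1 (1642 to 9315 CPM, 609 to 14347 CPM) overlapped.

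Matrix and adventitial genes past 2-fold were few and lay toward EKP, the direction of 22.3% of all genes tested. Of 7 matrix genes outside the rule 1 was past 2-fold, a share no higher than that background: Acan, the cartilage proteoglycan aggrecan, at 2269 CPM in EKP and 405 CPM in RKP gated cells, and all 10 RKP parts lay below the lowest EKP part. In both sections Acan was lower in gated cells than in the other cells, which had 13727 and 4683 CPM, and it was higher in Krt8-rich gated cells. Col1a1 (75657 and 84775 CPM), Bgn (75502 and 88288 CPM) and Lum (10418 and 12328 CPM) were within 1.5-fold. Of the adventitial genes outside the rule 2 of 4 were past 2-fold toward EKP, Dpt (452 and 129 CPM) and Ly6c1 (1364 and 397 CPM). The others were short of 2-fold: Igfbp6 was higher in RKP (1501 and 2889 CPM) and Mfap5 in EKP (4438 and 3245 CPM). In EKP, Dpt and Ly6c1 were lower in gated cells than in the other cells. Ly6c1 was also higher in Krt8-rich than in Krt8-free gated cells of both sections. No gene of the hedgehog and WNT list outside the rule was past 2-fold; Ptch1, the hedgehog receptor and target, stood at 1281 and 982 CPM, and that order turned among cells with no Krt8 or Myh11 (893 and 999 CPM). Sfrp1, a secreted WNT antagonist, stood at 6487 and 5116 CPM, and Axin2 at 2053 and 2789 CPM.

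Most of the 42 genes that were higher in RKP gated cells were lower there than in the other cells of the section. The largest ratios over all genes were those of Cldn2 (45.7 and 397 CPM) and Gabrp (89.5 and 766 CPM), followed by Muc4 (113 and 713 CPM), genes that had 5664, 5639 and 8073 CPM in the other RKP cells. Of the macrophage list 2 of 7 genes were past 2-fold toward RKP, where 12.8% of all genes tested were. Arg1 stood at 6791 CPM in EKP and 16065 CPM in RKP gated cells, against 8962 and 17276 CPM in the other cells, and each RKP part lay above the highest EKP part. Of the T cell list 4 of 8 and of the neutrophil list 2 of 5 were past 2-fold toward RKP, read against the same 12.8%, the former with no gene above 222 CPM; Prf1 of the T cell list was past 2-fold toward EKP, as were 22.3% of all genes tested. For all of these lists the gated cells held less than the other cells of the section in their summed level. How far transcripts of neighbouring cells account for them was not tested.

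**Figure D5:**
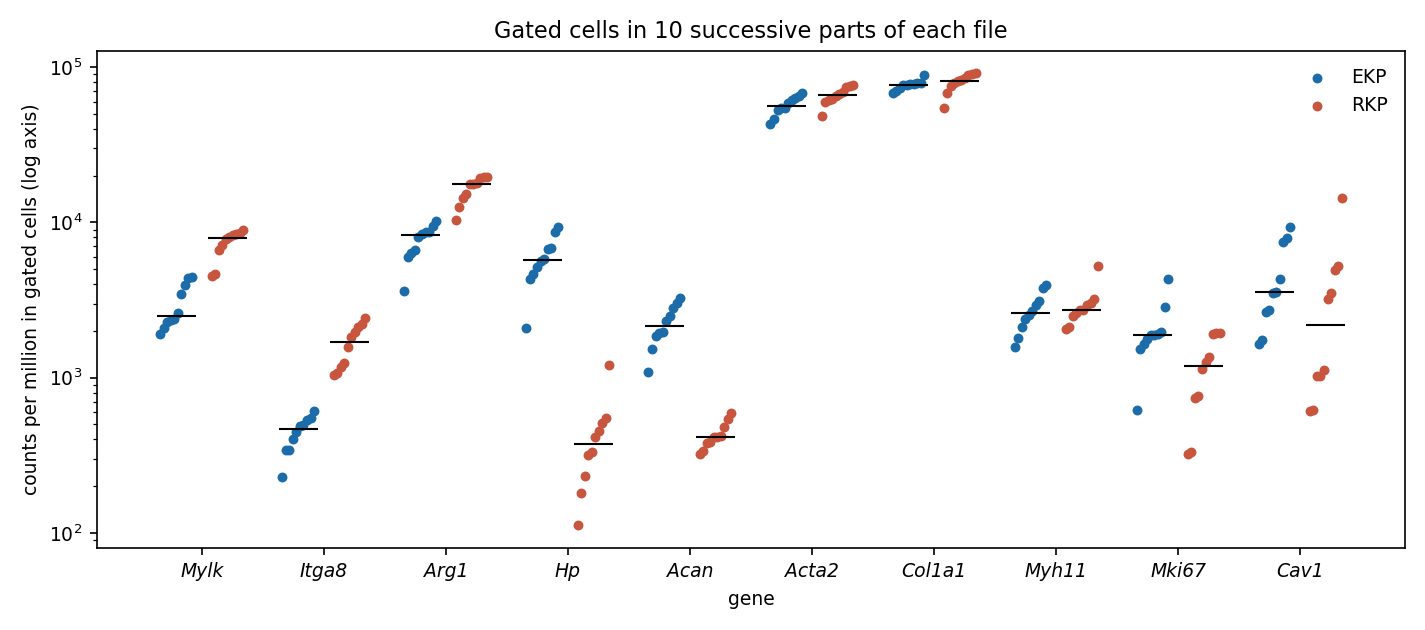
Level of 10 genes in the gated cells of 10 successive parts of each section's file (CPM, log axis); points are parts sorted by value and black lines are medians over the parts. Mylk, Itga8 and Arg1 lie higher in every RKP part than in any EKP part, Hp and Acan lower, and Acta2, Col1a1, Myh11, Mki67 and Cav1 overlap. Itga8 is a gene of the rule by which the cells were chosen, so its values are a description only.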

How the data were processed

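Xenium In Situ was run on 1 EKP and 1 RKP tumour section. The authors deposited a matrix of raw transcript counts per gene and segmented cell for each section; the submitters' processing notes list Seurat 4.4.0 without its role, and no source used here gives the segmentation method. The members, gene lists and comparison sets were chosen with earlier results of these data known. Counts were summed over the cells of a set and scaled to 1000000 gene counts, written CPM (Python 3.11.15, numpy 2.4.6, scipy 1.17.1). A gene was kept if its sum was at least 20 and above the highest negative control probe (4 counts in EKP and 3 in RKP gated cells) on at least 1 side; a lower side took that level, which makes the fold a bound. Called means past 2-fold, a rule of size. The 12 genes of the rule enter no count. Intervals are at 95%: conditional binomial (exact) for ratios, Clopper-Pearson for shares. Named genes were list members, the largest ratios between sections and the largest ratios against each comparison set. Doublets were not called. Some genes are not reported here. The ratio code was tested on simulated data.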

Additional observations from a re-analysis of the deposited data

Results flagged for a closer look

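In 5 genes the gated cells stood on opposite sides of a comparison set in the sections, by at least 1.5-fold each way; in each the difference was not tested. Hp in gated cells over all other cells was 0.93 on the log2 scale in EKP and -2.23 in RKP. For Lrp2 the values were 0.97 and -1.004, for Cldn11 -0.76 and 1.34, and for Mlana -2.38 and 1.36, over the same cells. Prf1, perforin of cytotoxic lymphocytes, was 0.89 in EKP and -2.17 in RKP over Lum cells. Cldn11, Mlana and Prf1 had no more than 40 CPM in the gated cells of either section.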

How the results depend on the processing

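The EKP over RKP ratio of the share of gated cells stayed above 1 under every alternative run: 1.99 with 80 or more counts per cell, 2.10 with 2 or more Cnn1 counts, 2.22 with no Epcam, 1.70 with 2 or more second genes, 1.68 with no Epcam, Krt8 or Cdh1 count, 1.67 from 20 counts, 1.26 over all cells, and 1.43 with no Krt8 or Myh11 count. That last setting, and thinning for the Krt8 and Myh11 divisions, were chosen after seeing the data. Genes past 2-fold toward RKP and EKP were 26 and 37 with no Epcam, Krt8 or Cdh1 count, 27 and 31 with no Krt8 or Myh11 count, and 12 and 21 at 1000 CPM or more, where fewer genes were tested; 25 were higher in RKP with 2 or more Cnn1 counts and 136 in EKP with no filter. RKP genes made up 36.5% of the calls in the main setting, 25.7% with counts per cell, 25.7% with no filter and 46.6% with no Krt8 or Myh11 count. The median log2 difference over genes was -0.39 with counts per cell. With no Krt8 or Myh11 count, 2 genes were higher than in Lum cells, and the difference of Pnmal2 turned to -0.15. With cells thinned to 40 counts, 24 genes were higher with Krt8, 1 lower with Myh11, 3 apart with Itga8 and 6 with Mfap4; thinning leaves fewer counts per gene. Elsewhere the cause was not tested. Over all alternatives, 70 values for the comparisons kept within their limits and 21 moved. For single genes 561 kept, 218 moved and 1 was marked as reversed. That mark is stricter than a change of sign. The sign changed under 5 of 12 alternatives for Des, 3 for Cnn1 and 2 for Lum, among others. No paired analysis was possible because each group has 1 section. Genes under about 20 counts in the gated cells could not be compared at this depth.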
